A study of Mus musculus with 6 samples.

Results

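The primary granule genes of neutrophils were examined in sorted pro-B cells, as 5 genes: Mpo, Elane, Prtn3, Ctsg and Ms4a3. Members were taken by symbol from probe sets annotated with exactly 1 gene, and all 5 of the 17097 genes so measured were found. Where a gene has several probe sets, its main one is chosen by the mean log2 level over the 6 arrays, but each member had 1 probe set, so this choice did not arise and no other probe set stands beside it. RNA of mouse pro-B cells, sorted as B220+CD43+IgM-, was hybridised to Affymetrix perfect-match arrays, 3 from wild type mice and 3 from HDAC7 deficient mice described as conditional. The labels give neither the allele, the Cre line nor the animals' age. HDAC7 belongs to the class IIa histone deacetylases, and the study's question was whether it represses genes that do not belong to the B lineage. The labels call the arrays biological triplicates but do not say how many animals each array drew on, so p-values measure the spread between these samples.

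Primary (azurophil) granules are the first granules that a developing neutrophil makes, at the promyelocyte stage, and their genes are switched off before the late granules form. They are switched on by C/EBP factors, PU.1 and MYB in granulocyte progenitors. Mpo encodes myeloperoxidase, which makes hypochlorous acid from hydrogen peroxide and chloride. Elane (neutrophil elastase), Prtn3 (proteinase 3) and Ctsg (cathepsin G) encode serine proteases stored active in the granule. Ms4a3 encodes a membrane protein of the MS4A family that marks granulocyte-monocyte progenitors rather than the granule itself.

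The members lie on 4 chromosomes, and Prtn3 and Elane are close neighbours on chromosome 10. RefSeq promoter sequences were held for all 5, and the 250 bases before each start site are shown because the members followed each other closely across arrays (below). The build is GRCm38.p6, used for sequence alone since arrays carry no coordinates. The windows are chr11:87793534-87793783 on the plus strand for Mpo, chr10:79886062-79886311 on the plus strand for Elane and chr10:79879417-79879666 on the plus strand for Prtn3. Those of Ctsg and Ms4a3 are chr14:56102575-56102824 and chr19:11640852-11641101, both on the minus strand. Each is written 5′ to 3′ on the gene's strand, and capitals mark GGAAGT, letters that hold the core bound by ETS factors such as PU.1.
Mpo: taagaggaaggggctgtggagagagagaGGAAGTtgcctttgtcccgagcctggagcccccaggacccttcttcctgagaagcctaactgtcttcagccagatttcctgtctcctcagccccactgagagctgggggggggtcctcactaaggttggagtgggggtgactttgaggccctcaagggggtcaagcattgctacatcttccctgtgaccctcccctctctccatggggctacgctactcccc
Elane: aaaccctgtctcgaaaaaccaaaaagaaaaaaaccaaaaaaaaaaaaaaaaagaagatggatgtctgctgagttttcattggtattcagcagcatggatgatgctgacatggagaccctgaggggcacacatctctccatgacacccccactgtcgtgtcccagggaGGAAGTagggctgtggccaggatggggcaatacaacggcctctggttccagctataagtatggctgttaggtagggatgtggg
Prtn3: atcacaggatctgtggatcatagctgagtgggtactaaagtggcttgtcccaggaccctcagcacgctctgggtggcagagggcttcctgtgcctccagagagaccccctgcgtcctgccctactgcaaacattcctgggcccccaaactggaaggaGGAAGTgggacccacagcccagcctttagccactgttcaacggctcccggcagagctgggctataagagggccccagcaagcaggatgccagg
Ctsg: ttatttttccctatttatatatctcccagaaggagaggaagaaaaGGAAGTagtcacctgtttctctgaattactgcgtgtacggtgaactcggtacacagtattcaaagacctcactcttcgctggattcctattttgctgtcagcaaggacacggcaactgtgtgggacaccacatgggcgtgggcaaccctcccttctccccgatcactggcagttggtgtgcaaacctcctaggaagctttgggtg
Ms4a3: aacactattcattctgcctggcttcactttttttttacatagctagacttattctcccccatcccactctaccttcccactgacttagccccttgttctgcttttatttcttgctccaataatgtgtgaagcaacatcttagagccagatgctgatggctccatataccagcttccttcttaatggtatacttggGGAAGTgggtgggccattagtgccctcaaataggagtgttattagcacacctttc

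GGAAGT, searched on both strands, was found once in each of the 5 windows, always on the gene's own strand. Counted from the start site, it began at -222 in Mpo, -83 in Elane, -93 in Prtn3, -205 in Ctsg and -55 in Ms4a3. Of 32851 RefSeq promoter windows of the same length, 19.7% held it. The C/EBP pattern TTGCNNAA was in none of the 5 windows and in 9.56% of all. The MYB pattern AACNG, on either strand, was in every window but that of Ms4a3 and in 74.2% of all. TATAA on the sense strand between -35 and -21 was found in Elane, at -31, and in Prtn3, at -32, and in 3.16% of all windows. The motifs were picked after the sequences had been seen and do not overlap each other in these windows, so the matches are descriptions of letters and not of binding.

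The arrays differed in quality. Wild-type replicate 3 correlated with the other 5 arrays at 0.70 to 0.82 over probe sets, and its Actb probe set at the 3′ end exceeded the one in mid-transcript by 1.69, while the other arrays gave 0.16 to 0.26. Xist, the RNA of the inactive X chromosome, read 11.40 and 11.27 on HDAC7-deficient replicates 2 and 3 and 8.51 on wild-type replicate 3. These are called Xist-high. The other 3, at 4.87 to 5.38, are called Xist-low. The cut was midway between the lowest and highest value, and wild-type replicate 3 lay only slightly above it, so its place in this division is uncertain. Hdac7 itself read 7.31 to 9.48 in wild type and 9.27 to 9.95 in HDAC7 deficient; whether its probes lie in the deleted part is not known here, so it does not check the labels. Early B lineage genes were bright on all arrays, with medians over 13 measured genes of 8.34 to 10.47. Differences between genotypes are therefore given with and without wild-type replicate 3.

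All 5 primary granule genes gave strong signals in the sorted pro-B cells of both genotypes. On the 5 arrays other than wild-type replicate 3 they read between 9.43 and 11.98 (log2), against array medians over all genes of 6.34 to 6.44. None of the 5 passed the test between genotypes, and the direction of all 5 turned with wild-type replicate 3. In bulk samples such as these, more or fewer cells of a type and more or less RNA per cell cannot be told apart.

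Mpo, the peroxidase, read 11.98, 11.69 and 9.92 on wild-type replicates 1 to 3 and 11.58, 11.75 and 11.77 on HDAC7-deficient replicates 1 to 3. Wild-type replicate 1 was the highest array and wild-type replicate 3 the lowest, and the groups overlapped. The means were 11.20 ± 1.12 and 11.70 ± 0.11 (SD, n = 3 each), a difference of 0.50 ± 0.55 (SE) with a limma adjusted p of 0.547.

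Elane, the elastase, read 11.50, 10.97 and 7.65 in wild type and 10.79, 11.04 and 10.96 in HDAC7 deficient, in replicate order. The order of the arrays was again led by wild-type replicate 1 and closed by wild-type replicate 3. Its means were 10.04 ± 2.09 and 10.93 ± 0.13 (SD, n = 3 each), a difference of 0.89 ± 0.95 (SE) with a limma adjusted p of 0.539.

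Prtn3, its neighbour on the chromosome, read 10.50, 9.64 and 5.38 in wild type and 9.43, 9.68 and 9.57 in HDAC7 deficient. On wild-type replicate 3 it lay below that array's median gene of 6.47. The means were 8.51 ± 2.74 and 9.56 ± 0.12 (SD, n = 3 each), which differed by 1.06 ± 1.23 (SE) with a limma adjusted p of 0.568.

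Ctsg, the cathepsin, read 10.96, 10.26 and 7.18 in wild type and 10.34, 10.11 and 10.12 in HDAC7 deficient. Ms4a3, the membrane protein gene, read 10.75, 9.86 and 7.83 in wild type and 10.03, 9.81 and 9.83 in HDAC7 deficient. For both genes HDAC7-deficient replicate 1 was the highest of its group, whereas for the first 3 genes it was the lowest. The difference was 0.73 ± 0.92 (SE) for Ctsg and 0.41 ± 0.71 for Ms4a3, with limma adjusted p-values of 0.597 and 0.698.

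**Figure D1:**
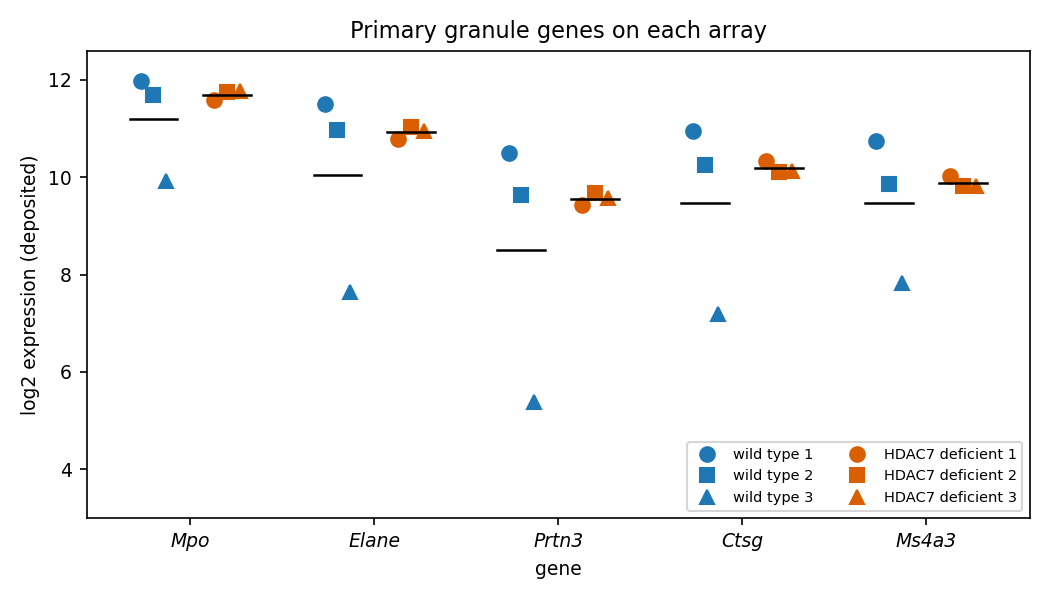
Deposited log2 expression (vertical axis) of each primary granule gene (horizontal axis) on the 3 wild-type arrays (blue) and the 3 HDAC7-deficient arrays (orange), with symbols for replicates 1 to 3 and a black bar at each group mean. Wild-type replicate 1 is the highest and wild-type replicate 3 the lowest array for all 5 genes, while the HDAC7-deficient arrays lie within 0.25 of each other.

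The HDAC7-deficient arrays lay close together for every member, within 0.19 for Mpo and up to 0.25 for Elane. Wild-type replicate 2 lay inside the range of the HDAC7-deficient arrays for all 5 genes. The wild-type spread thus came mostly from replicate 3, which differed from the next lowest array by -1.66 for Mpo to -4.05 for Prtn3. Replicate 1 lay on the other side, 0.21 to 0.82 above the next highest array for the same genes. The 95% confidence intervals of the difference with all arrays were wide, from -0.80 to 1.80 for Mpo and from -1.85 to 3.96 for Prtn3.

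Without wild-type replicate 3 all 5 members were lower in HDAC7 deficient, where with it all 5 were higher. The differences were then -0.14 ± 0.10 for Mpo, -0.30 ± 0.15 for Elane, -0.51 ± 0.24 for Prtn3, -0.42 ± 0.20 for Ctsg and -0.42 ± 0.24 for Ms4a3 (SE, 2 wild-type and 3 HDAC7-deficient arrays). The limma adjusted p-values of 0.388 to 0.549 left every member short of the threshold. The 95% intervals all included 0, and their upper bounds ran from 0.04 for Ctsg to 0.13 for Ms4a3. The lower bounds ran from -1.06 for Prtn3 to -0.36 for Mpo. A rise larger than those upper bounds lies outside the intervals of this fit, which holds only 2 wild-type arrays. Most of each difference came from wild-type replicate 1. Wild-type replicate 2 read 11.69 for Mpo and 9.64 for Prtn3, beside HDAC7-deficient means of 11.70 and 9.56. The bounds therefore rest largely on 1 high array.

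**Figure D2:**
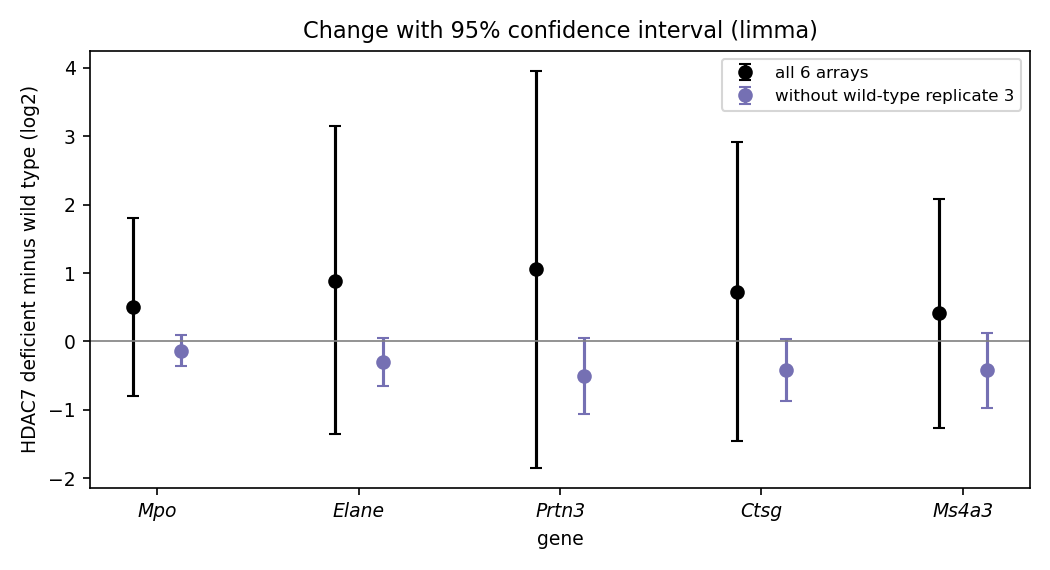
Difference between HDAC7 deficient and wild type (log2, vertical axis) for each gene, as the limma estimate (point) with its 95% confidence interval (bar), with all 6 arrays (black) and without wild-type replicate 3 (purple). All black points lie above 0 and all purple points below it, and every interval includes 0.

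Over all genes the test called none as well: 0 of 17097 genes (0%) passed a limma adjusted p of 0.05 with all arrays, and 0% without wild-type replicate 3. At an unadjusted p under 0.05 the shares were 12.7% (2165 genes) and 14.0% (2399 genes), and no member was among them in either fit. The median difference of the members was 0.73, beside -0.03 over all genes, and -0.42 beside -0.05 without wild-type replicate 3. All 5 members were higher with all arrays, beside 48.0% of all genes, and none without wild-type replicate 3, beside 43.2%. Within the Xist-low arrays, HDAC7-deficient replicate 1 lay below the mean of wild-type replicates 1 and 2 by differences of -0.26 for Mpo, -0.45 for Elane, -0.63 for Prtn3, -0.26 for Ctsg and -0.28 for Ms4a3. These equal a fit that leaves out wild-type replicate 3 and has the Xist division as a block, in which 4 of all genes passed (0.0234%) and no member did. Within the Xist-high arrays, with wild-type replicate 3 alone on the wild-type side, the differences ran from 1.85 for Mpo to 4.24 for Prtn3. Over all 6 arrays, blocking on this division gave 0.79 for Mpo, 1.46 for Elane, 1.80 for Prtn3, 1.33 for Ctsg and 0.86 for Ms4a3, a median of 1.33, and called no member.

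Weighting the arrays made calls of members, all of them lower in HDAC7 deficient. With limma's array weights 5 members passed, and with weights estimated gene by gene 3 passed (Prtn3, Ctsg and Ms4a3). These fits called 63.9% and 49.4% of all genes. They gave wild-type replicate 1 weights of 40500 and 8.68, against 0.0370 and 0.471 for wild-type replicate 2, so they set HDAC7-deficient arrays mainly against 1 wild-type array. The first of them did not converge.

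Wild-type replicate 1 was the highest of all arrays for each of the 5 members. It exceeded the highest of wild-type replicate 2 and the HDAC7-deficient arrays by 0.21 for Mpo, 0.45 for Elane, 0.61 for Ctsg, 0.73 for Ms4a3 and 0.82 for Prtn3. Of the 1236 genes at least as bright as the dimmest member on the 5 arrays other than wild-type replicate 3, it was the highest of those 5 arrays for 89 (7.20%). In 7 of the 1236 (0.566%) the gap was at least that of Mpo, and 5 of these 7 were the members. Both cuts were set by members, the level by Prtn3 and the gap by Mpo. The members are thus included by construction, and similar genes that are slightly dimmer are left out. Alas1, at a mean of 9.72 on those 5 arrays against a floor of 9.76, had a gap of 0.37. Over all 17097 genes, most of them dimmer, wild-type replicate 1 was the highest of those 5 arrays in 33.8%, and the gap was at least that of Mpo in 16.9% (2883 genes). The other two bright genes, named after their values were seen, were Adi1, an enzyme of methionine salvage, with a gap of 0.35, and Eef1d, a translation elongation factor subunit, with 0.22. The excess over wild-type replicate 2 was 0.30 for Mpo and 0.89 for Ms4a3, the smallest and the largest of the 5.

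**Figure D3:**
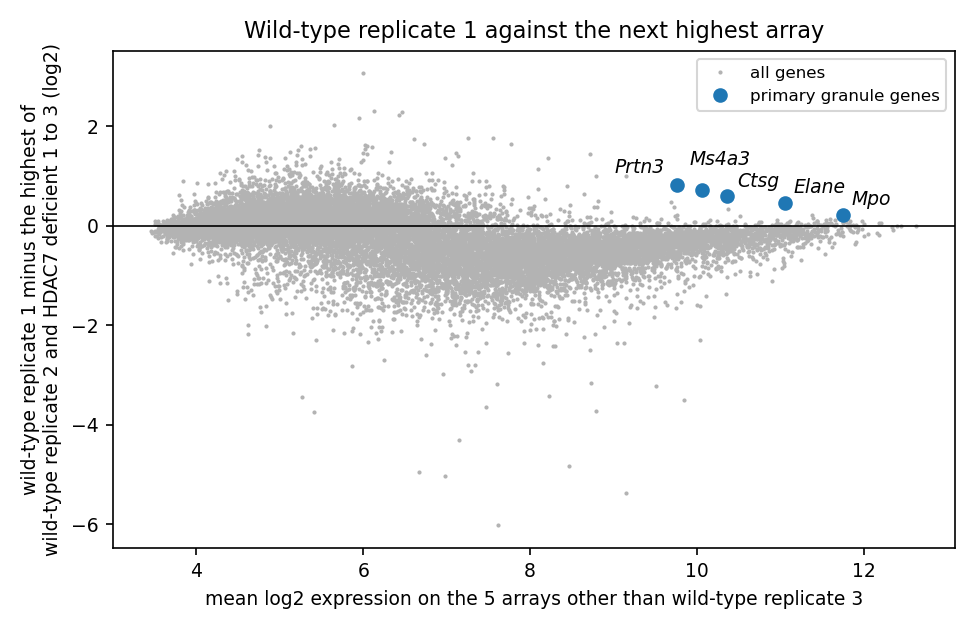
Wild-type replicate 1 minus the highest of wild-type replicate 2 and the 3 HDAC7-deficient arrays (log2, vertical axis) against mean log2 expression on the 5 arrays other than wild-type replicate 3 (horizontal axis), for all 17097 genes (grey) and the 5 primary granule genes (blue). The blue points lie between 0.21 and 0.82, in a range of levels where most grey points lie below 0.

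Wild-type replicate 3 read most bright genes low. In 1082 of the same 1236 genes (87.5%) it was the lowest of the 6 arrays, against 37.8% of all 17097 genes; the bright genes were picked on the other 5 arrays, which favours a low reading here. Their median difference from the mean of wild-type replicates 1 and 2 on this array was -1.67, with quartiles of -2.61 and -0.67. The members differed by -1.92 for Mpo, -2.48 for Ms4a3, -3.43 for Ctsg, -3.59 for Elane and -4.68 for Prtn3. Among the bright genes 42.6% lay lower still than Mpo and 27.6% lower than Ms4a3, against 9.39% for Ctsg, 6.96% for Elane and 0.971% for Prtn3. By this measure the 3 proteases lay near the low end of these bright genes on that array, and Mpo near their middle. By rank of the signal within an array, which also depends on the probes, Prtn3 stood at percentile 17.6 of genes on wild-type replicate 3 and at 88.7 to 97.3 elsewhere. Ctsg stood at 72.0 there, Elane at 82.6, Ms4a3 at 85.7 and Mpo at 97.8. How far RNA quality or the cells on that array contribute was not tested.

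Across the 6 arrays the members' log2 levels ran in parallel, though with ranges of 2.07 for Mpo to 5.11 for Prtn3, and pairwise Pearson correlations were 0.963 (Mpo and Ms4a3) to 0.999 (Mpo and Elane, and Elane and Prtn3). All arrays share their kind of amplification, and how their values were normalized is not stated. Wild-type replicate 3 spans most of each range. Without it the 5 arrays gave correlations of 0.684 (Mpo and Ctsg) to 0.991 (Ctsg and Ms4a3). Mpo, Elane and Prtn3 correlated with each other at 0.927 to 0.989, and Prtn3 also with Ms4a3 at 0.909 and with Ctsg at 0.892. Wild-type replicate 1 lay 0.21 to 0.82 above the next highest array for these genes. Wild-type replicate 2 and the HDAC7-deficient arrays spanned only 0.19 to 0.25. The correlations over 5 arrays therefore rest largely on 1 high array. For Mpo, Elane and Prtn3 HDAC7-deficient replicates 2 and 3 averaged 0.19 to 0.21 above replicate 1, and for Ctsg and Ms4a3 they differed from it by -0.23 and -0.21.

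The genes most like the members' mean profile over 6 arrays were Eef1d and Alas1 (Pearson r = 0.995 each), Cst7 (0.992), Rps16 (0.990) and Atpif1 (0.988). Alas1, which encodes the enzyme that starts haem synthesis, read 10.18, 9.68 and 6.66 in wild type and 9.42, 9.81 and 9.52 in HDAC7 deficient. Cst7, a cathepsin inhibitor of immune cells, read 9.23, 8.85 and 6.06, and 8.66, 8.85 and 8.44. Of 5987 genes that varied by at least 1 and lay above the median gene, 848 reached a correlation of 0.95, so the likeness is shared by many genes low on wild-type replicate 3. Over the other 5 arrays, with a range of at least 0.5, 17 of 5478 genes reached it. The top 5 were then Tbc1d9b, Cox8c, Evi5l (0.973 each), Adgrg6 (0.972) and Fam178b (0.971), which read 6.16 to 8.06 on those arrays and, unlike the members, highest on wild-type replicate 3.

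Genes that serve the primary granule were measured in 14 of 18 cases. With all arrays 11 were higher and 3 lower in HDAC7 deficient (median 0.80). Leaving out wild-type replicate 3 again gave 11 and 3 (median 0.12), and none passed in either fit. For these counts and those of the lists below, the share of all genes higher was 48.0% with all arrays. Without wild-type replicate 3 it was 43.2%. That array was the lowest for 87.5% of the 1236 bright genes above, which favours higher counts with all arrays in bright lists. For dimmer lists this need not hold, since it was the lowest for 37.8% of all 17097 genes. The erythroid list below had its highest median on that array, at 6.76. Serpinb1a, the inhibitor of the granule proteases, differed by 1.57 ± 1.0 with all arrays and by 0.30 ± 0.17 without that array. Fcnb, a ficolin made by myeloid cells, differed by 1.16 ± 0.68 and 0.40 ± 0.30. Slpi, a secreted protease inhibitor, differed by 0.81 ± 0.46 and 0.32 ± 0.16, and the lysosomal glucosidase gene Gaa by 0.98 ± 0.68 and 0.17 ± 0.27. Srgn, named after its values were seen, encodes the proteoglycan core that holds the proteases in the granule and read 11.06 to 11.18 on all 6 arrays, wild-type replicate 3 included.

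Transcription factors of granulocyte progenitors were measured in 9 of 10 cases, and none passed. All 9 were higher with all arrays (median 0.80), beside 48.0% of all genes. Without wild-type replicate 3 it was 6 of 9 (median 0.18), beside 43.2%. Cebpb differed by 0.83 ± 0.28 and Cebpd by 0.79 ± 0.25 with all arrays, and by 0.74 ± 0.27 and 0.60 ± 0.21 without that array, with limma adjusted p-values of 0.377 in the first fit and 0.314 and 0.299 in the second. Both are C/EBP factors of later myeloid cells and inflammation. Spi1, which encodes PU.1, differed by 0.80 ± 0.43 and 0.33 ± 0.23, and Myb by 0.85 ± 0.59 and 0.30 ± 0.41. Cebpa, the C/EBP factor of early granulocyte commitment, was named after its values were seen; it read 9.99, 9.63 and 5.30 in wild type and 9.69, 9.78 and 9.72 in HDAC7 deficient. Like the members it was highest on wild-type replicate 1 and lowest on wild-type replicate 3.

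Receptors and surface genes of granulocyte-monocyte progenitors were measured in 8 of 11 cases. All 8 were higher with all arrays (median 0.63) and 5 of 8 without wild-type replicate 3 (median 0.29), and none passed. Csf3r, the receptor for the granulocyte growth factor, differed by 1.39 ± 0.56 and by 0.76 ± 0.23 without that array, with limma adjusted p-values of 0.377 and 0.254. The shared cytokine receptor chain Csf2rb differed by 1.34 ± 0.83 and 0.31 ± 0.13, Fcgr3 by 0.70 ± 0.41 and 0.28 ± 0.20, and the hexokinase gene Hk3 by 0.57 ± 0.40 and 0.30 ± 0.28.

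Late granule and calprotectin genes, made by more mature neutrophils, ranged in level from Padi4, at 6.12 to 8.24, to S100a9, at 11.05 to 11.90, the latter named after its values were seen. Of 13 measured, 11 were higher with all arrays (median 0.92) and 13 without wild-type replicate 3 (median 0.72), where the 5 primary granule genes were all lower; none passed. Mmp8, a collagenase, differed by 1.45 ± 0.41 with all arrays and by 1.32 ± 0.38 without that array, Padi4 by 1.31 ± 0.36 and 1.14 ± 0.33, Olfm4 by 0.92 ± 0.28 and 1.0 ± 0.24, and Cd177 by 2.07 ± 0.96 and 0.98 ± 0.45. Within the HDAC7-deficient group, replicates 2 and 3 averaged above replicate 1 for 12 of the 13, with a median difference of 0.86. The same quantity for the primary granule genes had a median of 0.19, and that difference between the lists was not tested. HDAC7-deficient replicates 2 and 3 are Xist-high and replicate 1 is Xist-low, so genotype aside, these arrays also differ by that division.

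Markers of other cells also differed between arrays. Early B lineage genes were higher in 9 and lower in 4 of 13 with all arrays (median 0.13), and higher in 3 and lower in 10 when wild-type replicate 3 was left out (median -0.26), so their median turned as that of the primary granule genes did. Plasmacytoid dendritic cell genes, at list medians of 7.10 to 10.60 on the 6 arrays, were higher in 8 of 8 in both fits (medians 1.38 and 0.47). Genes of basophils, mast cells and eosinophils, at 6.65 to 8.22, were lower in 6 of 9 with all arrays (median -0.17) and in 9 of 9 otherwise (median -0.51). Macrophage genes, at 5.41 to 5.95, had medians of 0.01 and 0.18, T cell genes, at 6.45 to 7.39, of 0.39 and 0.28, and erythroid genes, at 5.74 to 6.76, of 0.08 and 0.18. For HDAC7-deficient replicates 2 and 3 minus replicate 1, the median was 0.85 for plasmacytoid dendritic cell genes (8 of 8 higher), 0.66 for erythroid genes (8 of 8) and 0.16 for macrophage genes (9 of 10). It was 0.23 for T cell genes (6 of 8), -0.46 for basophil, mast cell and eosinophil genes (2 of 9) and -0.76 for early B lineage genes (1 of 13). None of the genes of these lists passed. The part of other cells in the levels of the primary granule genes was not tested.

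**Figure D4:**
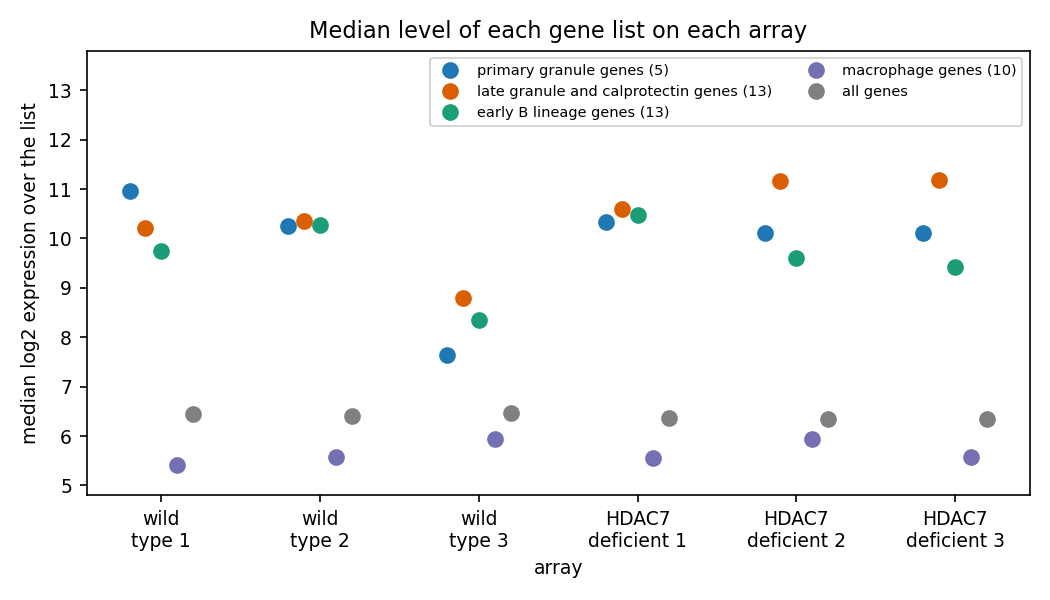
Median log2 expression (vertical axis) over each gene list on each of the 6 arrays (horizontal axis): primary granule genes (blue), late granule and calprotectin genes (orange), early B lineage genes (green), macrophage genes (purple) and all genes (grey). The primary granule median is highest on wild-type replicate 1 (10.96), and the late granule median on HDAC7-deficient replicates 2 and 3 (11.16 and 11.18).

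Genes beside the members on the chromosome ranged from dim to bright. Of the measured genes among the 5 nearest on each side, the brightest near Mpo was Epx, the eosinophil peroxidase gene, at 6.28 to 8.13. Near Elane it was R3hdm4, at 6.96 on wild-type replicate 3 and 11.03 to 11.09 elsewhere, and near Prtn3, apart from Elane, the splicing regulator Ptbp1, at 8.72 and 9.78 to 10.21. R3hdm4 and Ptbp1 differed between genotypes by 0.01 and by less than 0.01 without wild-type replicate 3. Near Ctsg it was Mcpt8, the basophil protease gene, at 7.74 to 10.47, while the granzyme genes Gzmd, Gzme and Gzmg, named after their values were seen, lay at 3.47 to 5.59. Near Ms4a3 it was Ms4a2, the beta chain of the IgE receptor, at 6.22 to 8.75. None of these neighbours passed in either fit.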

How the data were processed

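Per the labels' protocols, pro-B cell RNA went through whole transcriptome amplification before hybridisation to Affymetrix perfect-match arrays. The authors' table holds 1 deposited log2 value per probe set and array; how it was normalized is not stated, and its scale was inferred from values between 3 and 13. Of 45141 probe sets 104 controls were set aside, and 28898 had 1 symbol in a platform annotation table, giving 17097 genes, each represented by its brightest probe set; 28689 probe sets were matched by Entrez number to current RefSeq symbols. HDAC7 deficient and wild type were compared by limma (3.58.1, R 4.3.3) with trended moderated variances, and two-sided p-values were adjusted over all genes by Benjamini-Hochberg, threshold 0.05. No filter on dim genes was applied. The fit was also run on simulated data with independent noise and no outlying array, so that run does not bear on wild-type replicate 3. The number of arrays limits the precision.

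The members and gene lists were chosen with earlier results of these data known. Named genes were the members, up to 4 per related list by smallest p, the 5 most correlated genes and the brightest neighbour per locus; others are marked in the text. Alternatives left out each array, added blocks or array weights, and changed normalization, filters, variance model and probe set choice. Chosen after seeing the data were the gene-by-gene weights, and likeness and list values that leave out wild-type replicate 3. So were the comparisons with bright genes, whose cuts were set by the members' own values. Differences within the Xist-high arrays were not among the alternatives either. Plots were made in Python 3.11.15 (matplotlib 3.10.9).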

Additional observations from a re-analysis of the deposited data

How the results depend on the processing

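The differences of Mpo, Elane, Prtn3, Ctsg and Ms4a3 kept their direction and stayed short of the threshold in 74 of 95 gene and setting combinations. They turned in 21. Settings that changed only the filter, variance model or probe set choice, and the replicate block, left each difference unchanged. Their agreement in direction was fixed in advance, so the count of 74 is no measure of stability. Leaving out 1 array at a time gave ranges of -0.14 to 0.90 for Mpo, -0.30 to 1.62 for Elane, -0.51 to 2.05 for Prtn3, -0.42 to 1.47 for Ctsg and -0.42 to 1.04 for Ms4a3; only leaving out wild-type replicate 3 turned a direction. Leaving that array out and adding the Xist division as a block gave -0.26, -0.45, -0.63, -0.26 and -0.28, with 4 of all genes past the threshold. With all arrays that block gave a median of 1.33 against 0.73, with all 5 members higher. Array weights gave -0.25, -0.51, -0.87, -0.81 and -0.91, with 5 members and 10932 genes past the threshold. Weights estimated gene by gene gave -0.22, -0.45, -0.79, -0.75 and -0.84, with 3 members and 8452 genes. Quantile normalization turned Ms4a3 to -0.04. The replicate number as a block left the median difference at 0.73, called no member and called 1 gene, Hspa1b; same-numbered arrays correlated in their deviations at 0.10, 0.21 and 0.48, and not every array correlated best with its own number, so the numbers are not taken as pairs.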
